A study of Rattus norvegicus with 20 samples.

Results

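Liver RNA of male Harlan Sprague-Dawley rats given isodecyl diphenyl phosphate (IDDP) at 132 mg/kg was compared with that of rats given the corn oil vehicle alone, and the integrity of each RNA sample was read from control probe sets on the same array. IDDP, an organophosphate ester, is added to plastics to soften them and to slow burning. All rats were dosed by oral gavage on 4 consecutive days, with sacrifice on day 5, and the left liver lobe gave 100 ng of total RNA per array. The comparison took the 3 arrays labelled 132 mg/kg (0.338 mmol/kg) and the 5 arrays labelled as vehicle, 8 of the 20 arrays of the study, over all 31042 probe sets that are not controls. The other arrays came from rats at 66, 263.6, 527.1 and 1054.2 mg/kg, with 3 rats at each dose. Each array is a separate rat of its dose group, and the age of the rats was not given in the labels used here. Values are log2 intensities normalised by RMA (robust multi-array averaging). The liver markers Alb (15.30 to 15.35 in the vehicle rats and 15.34 to 15.35 at 132 mg/kg), Ttr (14.86 to 14.92 and 14.73 to 14.89) and Cyp2e1 (14.20 to 14.38 and 13.74 to 14.28) were bright. Prss1 of the exocrine pancreas (4.35 to 5.08 over all 20 arrays), Acta1 of skeletal muscle (3.58 to 4.21) and Adipoq of fat (4.68 to 5.37) were dim.

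Many foreign chemicals reach the hepatocyte nucleus through the receptors CAR and PXR, which switch on genes for oxidation, conjugation and export, such as Cyp3a enzymes, carboxylesterases, glucuronosyltransferases and the transporter Abcc3. Reactive products act through the transcription factor NRF2, which drives glutathione transferases and other protective enzymes. Array targets are made from RNA by priming at the poly-A tail, so a broken or incompletely copied transcript yields less signal at its 5′ end, and the gap between 3′ and 5′ probe sets of actin and GAPDH widens. Bacterial poly-A RNAs added to each sample before labelling give a second reading, since they are bright where little rat RNA was copied beside them.

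The 3 rats at 132 mg/kg differed from each other more than the vehicle rats did on these RNA measures. The 3′ minus 5′ difference, averaged over beta-actin and GAPDH, was 1.24, 1.74, 1.89, 1.84 and 1.47 in vehicle replicates 1 to 5 and 2.17, 3.25 and 1.49 in 132 mg/kg replicates 1 to 3. Replicates 1 and 2 lay above every vehicle rat and replicate 3 lay within their range. The group means were 1.64 ± 0.27 (SD, n = 5) and 2.31 ± 0.89 (SD, n = 3), a difference of 0.67 with p = 0.107 in an exact permutation test (two-sided, 56 possible splits of the 8 rats), whose smallest possible p is 0.0179. Without replicate 3 the difference was 1.07, and without replicate 2 it was 0.19. The exact permutation p without replicate 3, 0.0476, was the smallest that test can give. It was fixed by both remaining treated rats lying above every vehicle rat, so it adds nothing to that order. For beta-actin alone the values at 132 mg/kg were 2.77, 3.73 and 2.04 against 1.67 to 2.44 in the vehicle rats. For GAPDH alone they were 1.57, 2.78 and 0.95 against 0.82 to 1.35.

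Most of the widening in replicate 2 was on the 5′ side. Its 5′ actin probe set read 7.64, against 10.09 to 11.18 in the vehicle rats and 9.07 or more in every other array of the study. Its 3′ actin probe set read 11.37, against 12.36 to 12.85. Its 5′ GAPDH probe set read 10.20, against 11.63 to 12.33 in the vehicle rats, whereas the 3′ GAPDH probe set read 12.98, within the vehicle range of 12.98 to 13.14. The dim hexokinase control went the other way: its 3′ minus 5′ difference was 1.43, 1.53 and 1.73 at 132 mg/kg and 1.67 to 1.90 in the vehicle rats (difference -0.24, exact permutation p = 0.0536), with 3′ levels of only 5.40 to 5.75 at 132 mg/kg. The added poly-A RNAs averaged 8.17, 10.2 and 6.13 over 12 probe sets at 132 mg/kg and 5.78 to 7.19 in the vehicle rats (difference 1.70, exact permutation p = 0.0893). The hybridisation controls, added after labelling, averaged 11.36, 12.03 and 11.56 at 132 mg/kg and 11.27 to 11.68 in the vehicle rats.

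Among the other doses, 263.6 mg/kg replicate 2 had a 3′ minus 5′ difference of 2.47, with poly-A RNAs at 8.12, and 66 mg/kg replicate 2 had 2.04, with poly-A RNAs at 7.76. At 1054.2 mg/kg, replicate 2 had the brightest poly-A RNAs of the study (10.4) with a 3′ minus 5′ difference of only 1.74. The number of probe sets more than 2-fold from the vehicle mean was 174, 652 and 81 in 132 mg/kg replicates 1 to 3, against 24 to 56 in each vehicle rat set against the other vehicle rats. Of the 652 in replicate 2, 379 were lower and 273 higher, and of the 174 in replicate 1, 138 were higher and 36 lower. Among the 3 rats at 132 mg/kg, the one with the widest 3′ minus 5′ difference thus had the most such probe sets. The one within the vehicle range had the fewest. At 66 mg/kg, replicate 2 also had the widest difference and the most such probe sets (77). At 263.6 mg/kg, replicate 1 had 253 at a difference of 1.68 and replicate 2 had 245. At 527.1 mg/kg, replicate 1 had 231 at 1.70 and replicate 2 had 228 at 1.78. At 1054.2 mg/kg, replicate 2 had 469, and replicate 3 had 300 at 1.55.

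**Figure D1:**
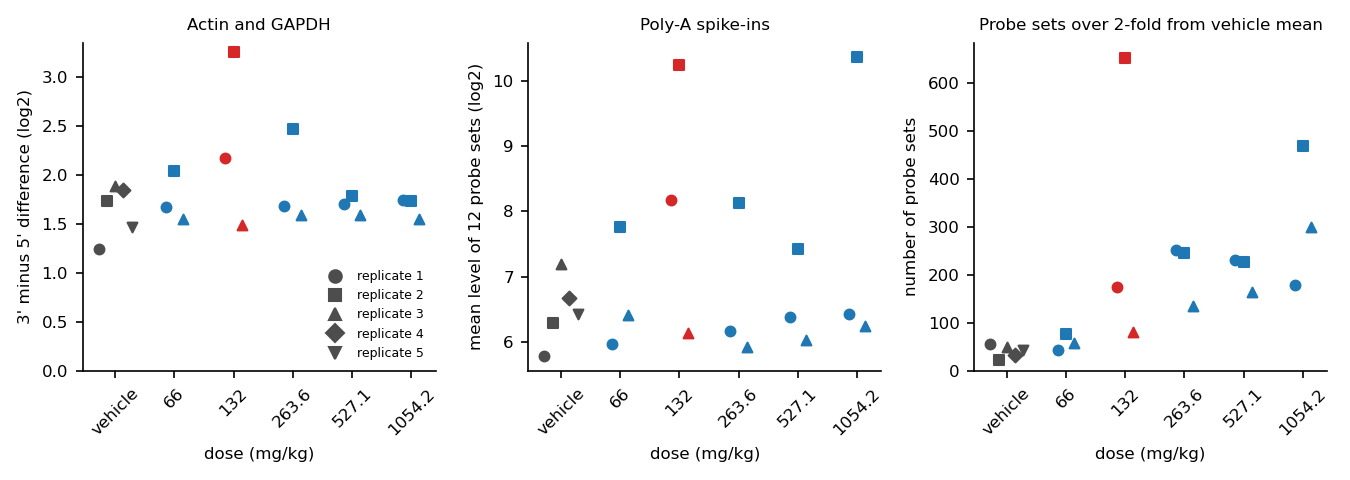
RNA measures of all 20 arrays by dose: the 3′ minus 5′ difference of beta-actin and GAPDH (log2, left), the mean level of the added poly-A RNAs (log2, middle) and the number of probe sets over 2-fold from the vehicle mean (right; a vehicle rat is set against the other 4). Each point is 1 rat, marker shape gives the replicate number and red marks 132 mg/kg, where replicate 2 is highest in the left and right panels at 3.25 and 652.

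Within dose groups, many transcripts followed the 3′ minus 5′ difference. With that difference as a covariate beside 1 mean per dose, 3117 probe sets (10.0%) had a slope past the threshold in limma (adjusted p under 0.05 by Benjamini-Hochberg), 1969 positive (6.34%) and 1148 negative (3.70%). The count was 935 without 132 mg/kg replicate 2, 1191 without its replicate 3, 1670 without 263.6 mg/kg replicate 2 and 544 with the replicate number as a block. Replicate 2 had the widest difference of its group at 66, 132, 263.6 and 527.1 mg/kg, and whether same-numbered rats shared a processing step was not tested. Among probe sets with a single symbol, the steepest negative slopes, in log2 per unit of the difference, were those of Rab11b, a small GTPase of recycling endosomes (-1.98 ± 0.20 SE, adjusted p = 4.69e-06), Hsdl2 (-1.82 ± 0.18, 3.39e-06), Reep6 (-1.81 ± 0.22, 3.26e-05), the RNA-binding protein Hnrnpa2b1 (-1.65 ± 0.12, 2.33e-07) and Tram1, of the protein translocation site of the endoplasmic reticulum (-1.55 ± 0.24, 3.58e-04). The steepest positive slopes among them were those of Shroom1 (1.19 ± 0.29, adjusted p = 0.0118), Rnpc3, of the minor spliceosome (1.16 ± 0.18, 4.28e-04), the mitochondrial carrier Slc25a25 (1.16 ± 0.23, 0.00277), Snx10 (1.14 ± 0.35, 0.0420) and the splicing kinase Prpf4b (1.10 ± 0.11, 4.69e-06). None of these 10 probe sets passed the test of 132 mg/kg against vehicle, and in each the 132 mg/kg rats overlapped the vehicle rats.

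Different probe sets of the same gene could follow the RNA measure in opposite directions. Of 4525 genes with several probe sets, 1171 had at least 1 with a slope past the threshold, and 82 had probe sets past it both ways. Gdi2, a regulator of Rab GTPases, is an example. Its probe set 1367460_at had a slope of 0.31 ± 0.08 (limma adjusted p = 0.0189) and read 12.70, 12.86 and 12.44 at 132 mg/kg against 12.09 to 12.60 in the vehicle rats. Its probe set 1398822_at had a slope of -1.43 ± 0.15 (1.14e-05) and read 9.78, 7.30 and 10.26 against 9.84 to 10.71. On that second probe set replicate 2 was the lowest of all 8 rats, as in the actin 5′ reading. Larp1, Yipf3 and Tpm1 also had probe sets past the threshold in both directions.

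The slope could be read on the 12 arrays that belong to neither side of the comparison. Among them, 263.6 mg/kg replicate 2 had the widest 3′ minus 5′ difference. There, 22 probe sets (0.0709%) passed, 4 positive and 18 negative. In the 132 mg/kg rats, which that fit did not use, the median of the 4 was 0.53, 1.55 and -0.21 above the vehicle mean in replicates 1 to 3, and the median of the 18 was -0.76, -1.92 and 0.21. Replicates 1 and 2 were displaced in the direction of the slope on both sets, replicate 2 furthest, and replicate 3 was displaced slightly the opposite way.

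At 132 mg/kg, Gsta3, Ces2c, Ugt2b1, Cyp3a23-3a1, Abcc3, Aldh1a1, Cryl1, Caprin2 and Skida1 rose, and Scd, Insig1, Sds, Slc6a6, Aacs, Fgl2 and Arih2 fell. In limma, 21 of the 31042 probe sets passed an adjusted p of 0.05 (0.0677%), 11 higher (0.0354%) and 10 lower (0.0322%), and 12 of the 21 differed at least 2-fold. They stood for 16 genes with a single symbol, 9 higher and 7 lower, plus 2 probe sets with several symbols, both higher, and 2 that are unnamed here, both lower. In all 21, the 3 treated rats lay on one side of all 5 vehicle rats, which held for 2537 of all probe sets (8.17%). At an unadjusted p under 0.05 there were 4623 probe sets (14.9%), 2519 higher (8.11%) and 2104 lower (6.78%), and the median change over all probe sets was -0.02. In bulk tissue, fewer cells of a type and less RNA per cell cannot be told apart.

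The conjugating and hydrolysing enzymes Gsta3 and Ces2c had the smallest p-values. Gsta3, a glutathione transferase, read 7.78, 7.97, 8.04, 8.13 and 7.91 in the vehicle rats and 10.09, 9.36 and 9.83 at 132 mg/kg, with no overlap and replicate 2 the lowest of the treated rats. It rose 3.47-fold (log2 1.80 ± 0.17 SE, limma adjusted p = 5.45e-05). Ces2c, a carboxylesterase that cleaves ester bonds of drugs and other foreign compounds, read 8.76, 8.92, 8.75, 8.87 and 8.82 against 10.76, 10.11 and 10.42. It rose 3.04-fold (1.60 ± 0.17, adjusted p = 1.61e-04), with every treated rat at least 1.18 log2 units above every vehicle rat. Neither had a slope past the threshold on the 3′ minus 5′ difference (-0.13 and -0.20, limma adjusted p = 0.666 and 0.415).

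Ugt2b1 and Cyp3a23-3a1, bright enzymes of glucuronidation and oxidation, rose by smaller factors with little spread. Ugt2b1, a glucuronosyltransferase, read 12.76, 12.48, 12.46, 12.62 and 12.83 in the vehicle rats and 13.44, 13.51 and 13.66 at 132 mg/kg, a rise of 0.90 ± 0.10 (limma adjusted p = 3.09e-04). Cyp3a23-3a1, the main PXR-driven cytochrome P450 of rat liver, read 13.27, 13.11, 13.04, 13.37 and 13.32 against 14.10, 13.92 and 14.26, a rise of 0.87 ± 0.11 (adjusted p = 0.00112). The 3 rats lay within 0.33 of each other for Cyp3a23-3a1 and within 0.22 for Ugt2b1. The part of the RNA measures in this spread was not tested. Aldh1a1, which oxidises retinaldehyde and other aldehydes, read 12.38, 12.49, 12.41, 12.44 and 12.30 against 13.14, 12.77 and 13.17, a rise of 0.62 ± 0.10 (adjusted p = 0.0156). Cryl1, an enzyme that oxidises gulonate in the pathway downstream of glucuronic acid, read 8.96, 8.79, 8.73, 8.68 and 8.89 against 10.07, 9.70 and 9.71, a rise of 1.02 ± 0.15 (adjusted p = 0.0108). A probe set with several symbols and a vehicle mean of 11.11 also rose, by 2.05 ± 0.32 (adjusted p = 0.0115), and another at 13.28 rose by 0.63 ± 0.11 (adjusted p = 0.0382).

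Abcc3, an efflux pump for glucuronides and bile acids, was the only gene called at 132 mg/kg whose slope on the 3′ minus 5′ difference also passed. Its vehicle values were 6.38, 6.36, 6.63, 6.83 and 6.72 and its values at 132 mg/kg were 8.48, 7.53 and 8.89. The rat with the widest RNA gap, replicate 2, was the lowest of the treated rats and still above every vehicle rat. The rise was 1.72 ± 0.28 (limma adjusted p = 0.0156), the slope was -0.67 ± 0.19 (adjusted p = 0.0318), and with the covariate the rise was 2.16 ± 0.26 (adjusted p = 7.46e-04).

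Caprin2 and Skida1 completed the higher genes. Caprin2, of an RNA-binding protein family, read 7.30, 7.24, 7.54, 7.13 and 7.65 in the vehicle rats and 8.31, 8.37 and 7.98 at 132 mg/kg (0.85 ± 0.13, limma adjusted p = 0.0115). Skida1 read 6.35, 6.58, 6.49, 6.57 and 6.82 against 7.18, 7.16 and 7.19 (0.61 ± 0.11, adjusted p = 0.0416). The groups did not overlap for either gene. With the covariate neither passed (0.71 ± 0.14, adjusted p = 0.0866 and 0.55 ± 0.13, adjusted p = 0.265).

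**Figure D2:**
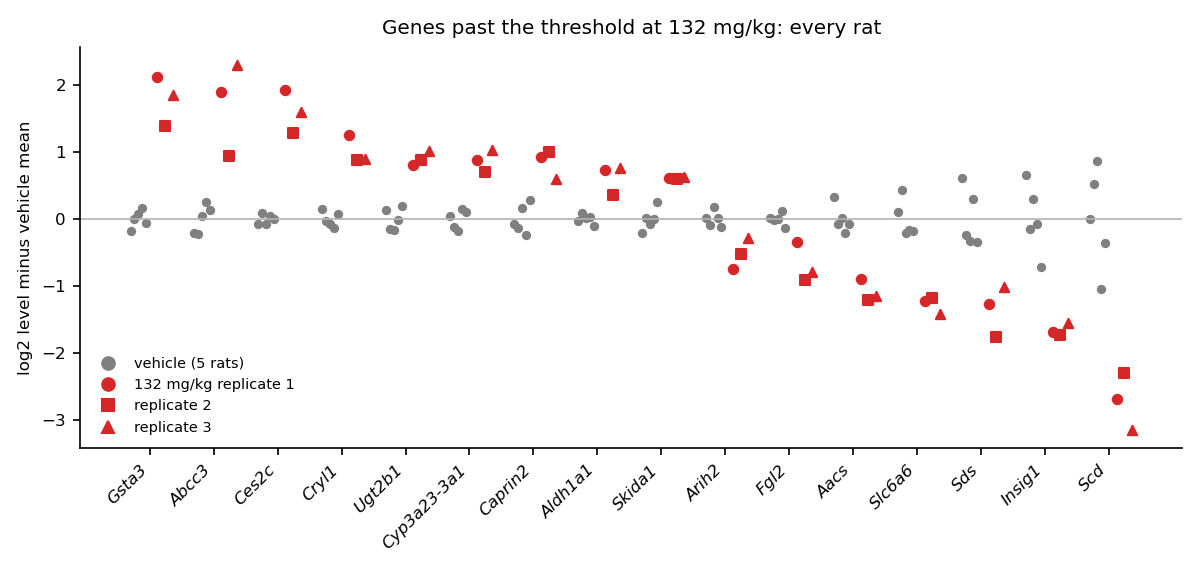
Log2 level minus the vehicle mean for the 16 genes past the threshold at 132 mg/kg. Each grey point is 1 of 5 vehicle rats and each red marker 1 of 3 treated rats; treated and vehicle rats do not overlap for any of the 16, and replicate 2 is the lowest treated rat for Gsta3 (9.36) and Abcc3 (7.53).

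The promoters of the called genes were read for letters bound by PXR, CAR and NRF2, for a sterol element and for an E-box. The sequence was RefSeq of the rat assembly GRCr8, from 250 bases before to 50 after each start site. Of the 16 genes, 13 had an entry. PXR binds pairs of half-sites in Cyp3a promoters, and the half-site TGAACT followed after 3 free bases by a second TGAACT (both strands searched) was found in 2 of 33469 promoters (0.006%). The Cyp3a23-3a1 promoter (chr12:14398754-14399053, minus strand, printed 5′ to 3′ along the gene) is shown because it was the only promoter among the 13 that held this repeat, in capitals from -144 to -130, followed by the E-box CACGTG from -103 to -98, a motif of 6.42% of all promoters. The Gsta3 promoter (chr9:31154739-31155038, plus strand) is shown because Gsta3 had the smallest p. Its capitals mark a match to the antioxidant element core TGACNNNGC, on which NRF2 acts, from -17 to -9.
Cyp3a23-3a1: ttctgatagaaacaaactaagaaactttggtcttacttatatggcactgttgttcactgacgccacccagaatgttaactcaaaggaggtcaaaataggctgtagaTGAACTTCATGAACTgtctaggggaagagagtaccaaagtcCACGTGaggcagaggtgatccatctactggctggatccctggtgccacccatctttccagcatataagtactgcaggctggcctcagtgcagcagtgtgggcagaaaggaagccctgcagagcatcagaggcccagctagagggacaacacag
Gsta3: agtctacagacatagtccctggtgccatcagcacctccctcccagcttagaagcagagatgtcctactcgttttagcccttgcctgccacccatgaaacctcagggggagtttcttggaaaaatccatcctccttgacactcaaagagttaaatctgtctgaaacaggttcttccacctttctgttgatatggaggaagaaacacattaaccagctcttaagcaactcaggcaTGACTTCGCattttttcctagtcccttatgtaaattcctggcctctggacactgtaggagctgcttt
That core was in 12.1% of all promoters and in 5 of the 13, namely Gsta3, Aacs and Arih2 on the gene's strand and Scd and Slc6a6 on the other. The sterol element core TCACNCCAC was in 1.12% of all promoters and in 0 of the 13, and AGGTCA repeated after 4 free bases, a pattern bound by CAR, was in 0.006% and in 0 of the 13. TGAACT facing its reverse complement AGTTCA across 6 free bases was in 0 of the 33469. The E-box was in 2 of the 13, Cyp3a23-3a1 and Insig1. No motif overlapped another in the printed promoters. A match describes the letters of this window and does not show a bound site.

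Genes of lipid synthesis and of sterol sensing were among the lower ones. Scd, which desaturates stearate to oleate, read 11.29, 11.82, 12.15, 10.24 and 10.92 in the vehicle rats and 8.59, 8.99 and 8.13 at 132 mg/kg. It fell 6.57-fold (log2 change -2.72 ± 0.48, limma adjusted p = 0.0313), from vehicle values that spread over 1.91. Insig1, which holds the sterol sensor SCAP in the endoplasmic reticulum, read 11.49, 10.68, 11.13, 10.75 and 10.11 against 9.14, 9.10 and 9.27, a fall with a log2 change of -1.66 ± 0.29 (adjusted p = 0.0266). The treated rats lay within 0.17 of each other for Insig1, much closer than the vehicle rats. Aacs, the cytosolic synthetase that activates acetoacetate for lipid synthesis, read 7.67, 7.25, 7.35, 7.12 and 7.25 against 6.44, 6.12 and 6.18 (-1.08 ± 0.19, adjusted p = 0.0283).

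Sds, the serine dehydratase that feeds serine carbon into glucose synthesis, read 9.01, 8.15, 8.06, 8.69 and 8.05 in the vehicle rats and 7.11, 6.62 and 7.38 at 132 mg/kg (-1.35 ± 0.24, limma adjusted p = 0.0288). The taurine transporter Slc6a6 fell on both of its called probe sets. On 1374531_at it read 10.41, 10.73, 10.09, 10.13 and 10.13 against 9.07, 9.11 and 8.87 (-1.28 ± 0.20, adjusted p = 0.0115). On 1368778_at it read 8.02, 8.23, 7.42, 7.41 and 7.12 against 6.93, 6.48 and 5.99 (-1.17 ± 0.21, adjusted p = 0.0405). Replicate 3, whose RNA measure was within the vehicle range, was the lowest rat on both.

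Fgl2, a prothrombinase made by macrophages and lymphocytes, read 8.48, 8.46, 8.47, 8.59 and 8.34 in the vehicle rats and 8.12, 7.56 and 7.68 at 132 mg/kg (-0.68 ± 0.11, limma adjusted p = 0.0190). Its other 3 probe sets had changes of -0.26, -0.44 and -0.27 and did not pass. Arih2, a ubiquitin ligase, read 7.28, 7.19, 7.44, 7.28 and 7.15 against 6.52, 6.74 and 6.98 (-0.52 ± 0.10, adjusted p = 0.0421), and its other probe sets had -0.07 and -0.37 without passing. Each of these calls rests on 1 of several probe sets of the gene.

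The largest fall belonged to the unnamed probe set 1393108_at. It read 11.16, 10.32, 10.99, 10.27 and 10.35 in the vehicle rats and 6.96, 6.80 and 7.12 at 132 mg/kg, 12.7-fold lower (-3.66 ± 0.57, limma adjusted p = 0.0115). The only other array near these levels was 263.6 mg/kg replicate 2 at 7.05, while the remaining 11 arrays lay between 9.46 and 11.23. Its slope over all arrays did not pass (-1.15 ± 0.43, adjusted p = 0.0965), but it was among the 22 probe sets that passed on the 12 other arrays, which include 263.6 mg/kg replicate 2. Replicate 3, with a 3′ minus 5′ difference of 1.49, was low on this probe set, as was replicate 2 with 3.25. The other unnamed probe set, 1372986_at, read 6.38 to 6.98 against 5.96 to 6.16 (-0.72 ± 0.12, adjusted p = 0.0153).

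The called genes were read again with the RNA measure as a covariate and with single rats left out. With the 3′ minus 5′ difference as a covariate, 14 probe sets passed (0.0451%), 10 higher and 4 lower, and 11 of the 21 were among them. Of the 9 higher genes 7 passed (Gsta3, Ces2c, Ugt2b1, Cyp3a23-3a1, Abcc3, Aldh1a1 and Cryl1), and of the 7 lower genes only Slc6a6 passed (adjusted p = 0.0477). For the lower genes, the change with the covariate and its adjusted p were -3.01 and 0.0531 for Scd, -1.49 and 0.184 for Insig1, -1.12 and 0.262 for Sds, -0.94 and 0.229 for Aacs, -0.65 and 0.0935 for Fgl2 and -0.46 and 0.265 for Arih2. The direction of all 16 genes stayed the same with the covariate and in each of the other alternatives run.

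Leaving out replicate 2, the rat with the widest gap, left 9 of the 21 probe sets, 8 higher and 1 lower. The same 7 higher genes passed as with the covariate, and 0 of the 7 lower genes did (limma adjusted p from 0.0515 to 0.239). The changes of the lower genes with the 2 remaining treated rats were -2.92 for Scd, -1.62 for Insig1, -1.33 for Slc6a6, -1.14 for Sds, -1.02 for Aacs, -0.57 for Fgl2 and -0.52 for Arih2. Leaving out replicate 1 left 6 probe sets, with 4 higher genes (Gsta3, Ces2c, Ugt2b1 and Cyp3a23-3a1) and 1 lower gene (Fgl2). Leaving out replicate 3, the rat whose RNA measure matched the vehicle rats, gave 1482 probe sets, 916 higher and 566 lower, with all 21 among them. The part of RNA quality in those 1482 was not tested. Without vehicle replicate 1, the rat with the narrowest gap, 9 probe sets passed. Gsta3, Ces2c, Ugt2b1 and Cyp3a23-3a1 passed in all 19 alternatives.

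**Figure D3:**
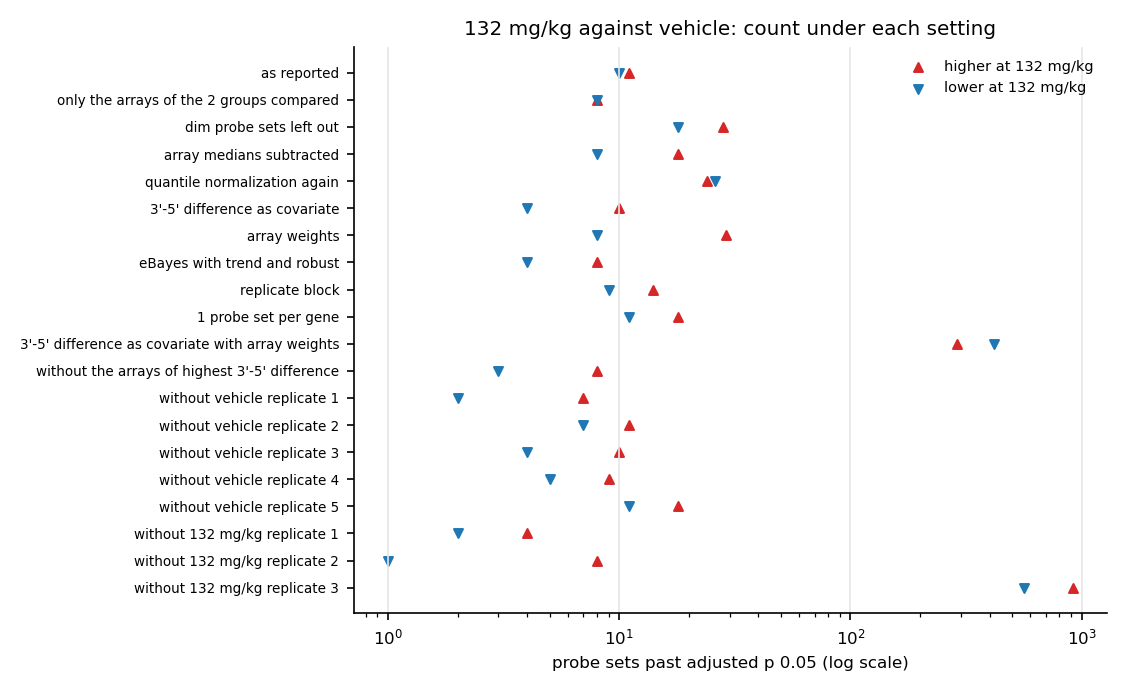
Number of probe sets past an adjusted p of 0.05 in limma for 132 mg/kg against vehicle under each setting, on a log axis. Upward triangles count probe sets higher at 132 mg/kg and downward triangles those lower; the reported counts are 11 and 10, the lowest total is 6 without 132 mg/kg replicate 1, and the highest are 916 and 566 without replicate 3 and 289 and 419 with the covariate and array weights together.

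For Crp, the change at 132 mg/kg was near 0 once the RNA measure was fitted. Crp, the C-reactive protein of the acute phase, read 12.24, 10.98 and 12.91 at 132 mg/kg and 12.62 to 13.45 in the vehicle rats, a change of -0.82 ± 0.35 that did not pass (limma adjusted p = 0.287). Its slope on the 3′ minus 5′ difference passed at -1.27, and with the covariate the change was 0.03. Crp was the member of smallest p in its list of acute phase and inflammation genes, in which 0 of 27 passed.

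The 10 genes of smallest p that did not pass had limma adjusted p from 0.0551 to 0.0571. Akr7a3, the aldehyde reductase that detoxifies aflatoxin dialdehyde, was 1.20 ± 0.23 above vehicle, with 12.71, 12.16 and 12.93 against 11.05 to 11.60, and passed with the covariate (1.51 ± 0.23, adjusted p = 0.00963). The others above vehicle were Tcf7l2, a transcription factor of Wnt signalling (0.71), Raph1 (0.61), the mitochondrial thiolase Acat1 (0.60), Timm10b of mitochondrial protein import (0.53), Amdhd2 (0.49), the respiratory chain assembly factor Uqcc3 (0.48) and Cep20 (0.42). Those below were Ctss, the lysosomal protease cathepsin S (-0.69), and Itgb2, the beta chain of leukocyte integrins (-0.65). Treated and vehicle rats did not overlap for any of the 10.

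The neighbouring doses were compared directly. Against 66 mg/kg, 0 probe sets passed in limma (1204 at an unadjusted p under 0.05), and of 263.6 against 132 mg/kg 0 passed (2890). The smallest adjusted p in the first was that of 1393108_at (0.680, change -3.54) and in the second that of Slc6a6 (0.172, change from 132 to 263.6 mg/kg -1.37 ± 0.22). Ces2c differed by 0.88 ± 0.19 between 66 and 132 mg/kg and by 0.81 ± 0.19 between 132 and 263.6 mg/kg, and Insig1 by -1.01 ± 0.32 and 1.04 ± 0.32. None of these passed (adjusted p from 0.369 to 0.991).

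Each dose was also set against the same 5 vehicle rats, so the changes below share those controls. From 66 to 1054.2 mg/kg, the change of Ces2c from vehicle was 0.72, 1.60, 2.42, 2.56 and 3.60, and that of Abcc3 was 1.07, 1.72, 2.36, 2.66 and 3.42. Gsta3 had 1.31, 1.80, 2.09, 2.20 and 2.96, and was past the threshold at all 5 doses (limma adjusted p = 0.00418 at 66 mg/kg). Slc6a6 had -1.03, -1.28, -2.65, -3.18 and -3.86. Insig1 and Aacs had their lowest value at 132 mg/kg. Insig1 had -0.65, -1.66, -0.62, -0.42 and 0.26, and Aacs had -0.42, -1.08, -0.68, -0.58 and 0.47, with adjusted p above the threshold at the other doses. Skida1 had its highest value at 132 mg/kg, with 0.20, 0.61, 0.18, 0.28 and 0.36. Scd had -1.28, -2.72, -2.29, -1.78 and -3.89.

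**Figure D4:**
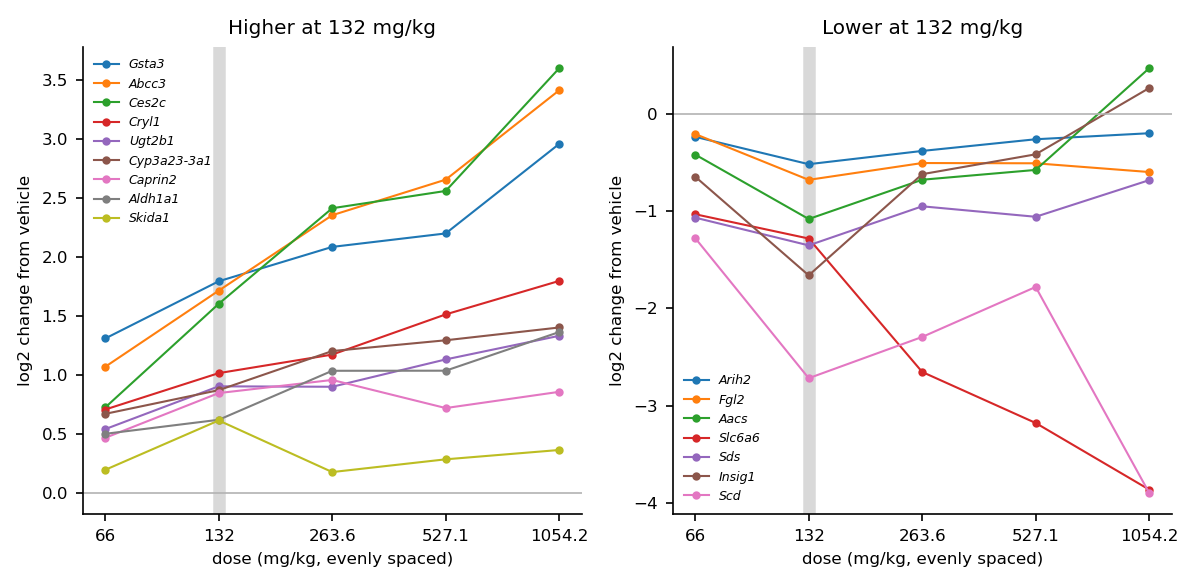
Log2 change from vehicle at each dose for the 9 genes higher (left) and 7 genes lower (right) at 132 mg/kg, the dose marked by the grey band. All doses share the same 5 vehicle rats and each point is a mean of 3 treated rats; Ces2c, Abcc3 and Gsta3 end at 3.60, 3.42 and 2.96, and Insig1 and Aacs are lowest at 132 mg/kg.

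In gene lists, each gene was read from its brightest probe set, and over 14217 genes 11.1% were higher and 6.18% lower at an unadjusted p under 0.05. Of the same genes 52.4% had a positive change, and their median change was 0.01. At least 1 gene passed in 6 of 31 lists. Of 21 measured CAR and PXR targets, 5 rose (Ces2c, Abcc3, Ugt2b1, Cyp3a23-3a1 and Aldh1a1), 0 fell and 16 did not pass. Over all probe sets tested, 0.0354% rose. Of the 21, 17 had a positive change, and at an unadjusted p under 0.05 there were 9 higher and 2 lower. The median of the list was 0.21, against 0.01 over all genes, and in replicates 1 to 3 it was 0.28, 0.08 and 0.34. The 2 lower were Alas1, the first enzyme of haem synthesis (-0.48 ± 0.21, limma adjusted p = 0.294), and Cyp2c7 (-0.21 ± 0.09, adjusted p = 0.272). For Cyp2c7 the treated rats lay below all vehicle rats. Cyp3a18, another PXR-responsive cytochrome, had 0.54 ± 0.14 (adjusted p = 0.123).

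Of 25 NRF2 targets only Gsta3 rose, and 9 were higher at an unadjusted p under 0.05, with a median of 0.18 (0.30, -0.04 and 0.21 in replicates 1 to 3). Nqo1, a quinone reductase, read 9.21, 8.54 and 9.06 against 8.56 or less in the vehicle rats (0.69 ± 0.18, limma adjusted p = 0.126), and Gclm, of glutathione synthesis, had 0.51 ± 0.15 (adjusted p = 0.160). Replicate 2 was the lowest of the 3 on the list median and on both of those genes. Of 19 glutathione transferases 1 rose, Gsta3, with a median of 0.14. On the 3′ minus 5′ difference, 6 of the 19 had a negative slope past the threshold, against 3.70% of all probe sets tested. The list takes only the brightest probe set of each gene, so these shares have different bases. Of 10 carboxylesterases and paraoxonases 1 rose, Ces2c.

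Of 21 genes in the fatty acid synthesis list 2 fell, Scd and Insig1, and 18 had a change below 0, with a median of -0.18. In replicates 1 to 3 the median was -0.27, -0.07 and -0.24, against -0.09 to 0.10 in the vehicle rats. Replicate 2 thus lay within the vehicle range. Insig1 is in that list as the protein that holds SCAP and not as an enzyme of synthesis. At an unadjusted p under 0.05, 5 were lower and 1 was higher, Me1 (0.57 ± 0.20, limma adjusted p = 0.206). Lpin1, a phosphatidate phosphatase, read 10.27, 10.25 and 9.92 against 10.30 to 11.74 (-1.07 ± 0.38, limma adjusted p = 0.214). Of 16 genes of cholesterol synthesis and uptake 0 passed, with Msmo1, a sterol demethylase, at -0.81 ± 0.25 (adjusted p = 0.171). Of 13 genes of gluconeogenesis 1 fell, Sds, and 10 had a change below 0. In 132 mg/kg replicate 3, Pck1, which makes phosphoenolpyruvate, read 12.46, against 13.42 and 13.55 in the other treated rats and 13.37 to 13.90 in the vehicle rats.

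Macrophage markers were lower in all 3 treated rats, without any passing the test. The list of Kupffer cells and macrophages had a median of -0.53, with 12 of its 12 measured genes below vehicle, 8 of them at an unadjusted p under 0.05. Its median by rat was -0.40, -0.66 and -0.55, against -0.22 to 0.23 in the vehicle rats, and its summed linear intensity was 12827, 11114 and 12148 against 15881 to 19193. In 8 of the 12 genes the treated rats lay below all vehicle rats, as did 4.04% of all genes. C1qa, a chain of the complement component made by resident macrophages, read 11.16, 11.21, 11.16, 11.34 and 11.05 in the vehicle rats and 10.46, 10.59 and 10.73 at 132 mg/kg (-0.59 ± 0.12, limma adjusted p = 0.0635). Clec4f, a lectin of Kupffer cells, read 11.84, 11.90, 11.85, 12.11 and 11.63 against 11.44, 11.14 and 11.25 (-0.59 ± 0.12, adjusted p = 0.0638). With the covariate, the changes of C1qa and Clec4f were -0.52 and -0.57 and the list median -0.50. The part of these cells in the lower values of Fgl2, Ctss and Itgb2, which macrophages also express, was not tested.

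Markers of other cell types had medians nearer to 0. They were -0.25 for endothelial markers (0 of 12 passed), -0.25 for stellate and fibroblast markers (0 of 17) and -0.16 for T and NK cell markers (0 of 14, 10 of which were below the median level of the array). By rat, the endothelial median was -0.08, -0.35 and -0.34, against -0.20 to 0.10 in the vehicle rats, and the stellate and fibroblast median -0.08, -0.36 and -0.31, against -0.25 to 0.12. The T and NK median was -0.16, -0.17 and -0.29, against -0.07 to 0.08, so all 3 treated rats lay below the vehicle range. In 5 of these 14 mostly dim genes the treated rats lay below all vehicle rats, as did 4.04% of all genes. The member of smallest p was Pecam1 among endothelial markers (-0.43 ± 0.12, limma adjusted p = 0.131) and Ccl5 among T and NK markers (-0.64 ± 0.17, adjusted p = 0.127). Hepatocyte markers had a median of -0.10 (0 of 14 passed), with summed linear intensity 250495, 244360 and 253419 against 263923 to 267894 in the vehicle rats.

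Cell cycle genes were above vehicle as a list, with 0 of 31 past the threshold. The median was 0.37, and 26 of the 31 changes were positive, against 52.4% over all genes. At an unadjusted p under 0.05, 14 were higher and 2 lower, and 13 of the 31 were dimmer than the median probe set. The 2 lower were Ccnd1 (-0.67 ± 0.31, limma adjusted p = 0.325) and Mcm3 (-0.23 ± 0.11, adjusted p = 0.322). By rat the median was 0.50, 0.28 and 0.46, against -0.09 to 0.20 in the vehicle rats. All 3 treated rats were thus above the vehicle range, as they also were for CAR and PXR targets and circadian clock genes. The summed linear intensity of the cell cycle list was within the vehicle range in all 3. It was 5080, 4803 and 5183 at 132 mg/kg, against 4099 to 5252 in the vehicle rats. In 7 of the 31 genes the treated rats lay above all vehicle rats, as did 6.19% of all genes. Ttk, a kinase of the mitotic checkpoint, read 4.33, 4.21, 4.36, 4.32 and 4.79 in the vehicle rats and 5.07, 5.16 and 5.08 at 132 mg/kg (0.70 ± 0.17, limma adjusted p = 0.115). Mki67, a marker of dividing cells, read 4.64 to 5.97 against 6.51, 6.37 and 6.12 (1.19 ± 0.35, adjusted p = 0.160). With the covariate the list median was 0.41, and 1 of the 31 had a slope past the threshold.

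The list of splicing and RNA-binding genes followed the RNA measure instead. Of its 27 genes, 14 had a positive slope on the 3′ minus 5′ difference past the threshold and 0 a negative one, against 9.06% of all genes with a positive slope. Its median by rat was 0.16, 0.40 and -0.04, in the order of their 3′ minus 5′ differences, and 0 of 27 passed at 132 mg/kg. With the covariate the median went from 0.09 to -0.05. Luc7l3, a splicing factor, read 10.10, 10.54 and 9.61 against 9.40 to 9.76 in the vehicle rats (0.51 ± 0.19, limma adjusted p = 0.235), with a slope of 0.59.

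In the other lists 0 genes passed. Nr1d1, a repressor of the circadian clock, read 7.62, 8.03 and 8.14 against 6.39 to 7.72 in the vehicle rats (1.16 ± 0.24, limma adjusted p = 0.0756). Cd36, a fatty acid transporter among the PPARalpha targets, read 6.25, 5.14 and 5.97 against 6.40 to 6.86 (-0.85 ± 0.20, adjusted p = 0.0970), with a slope of -0.45. Of 32 PPARalpha targets, 20 had a positive change, with a median of 0.04. The ATF4 list had a median by rat of 0.13, 0.50 and -0.07, within the vehicle range of -0.21 to 0.46 in all but replicate 2.

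**Figure D5:**
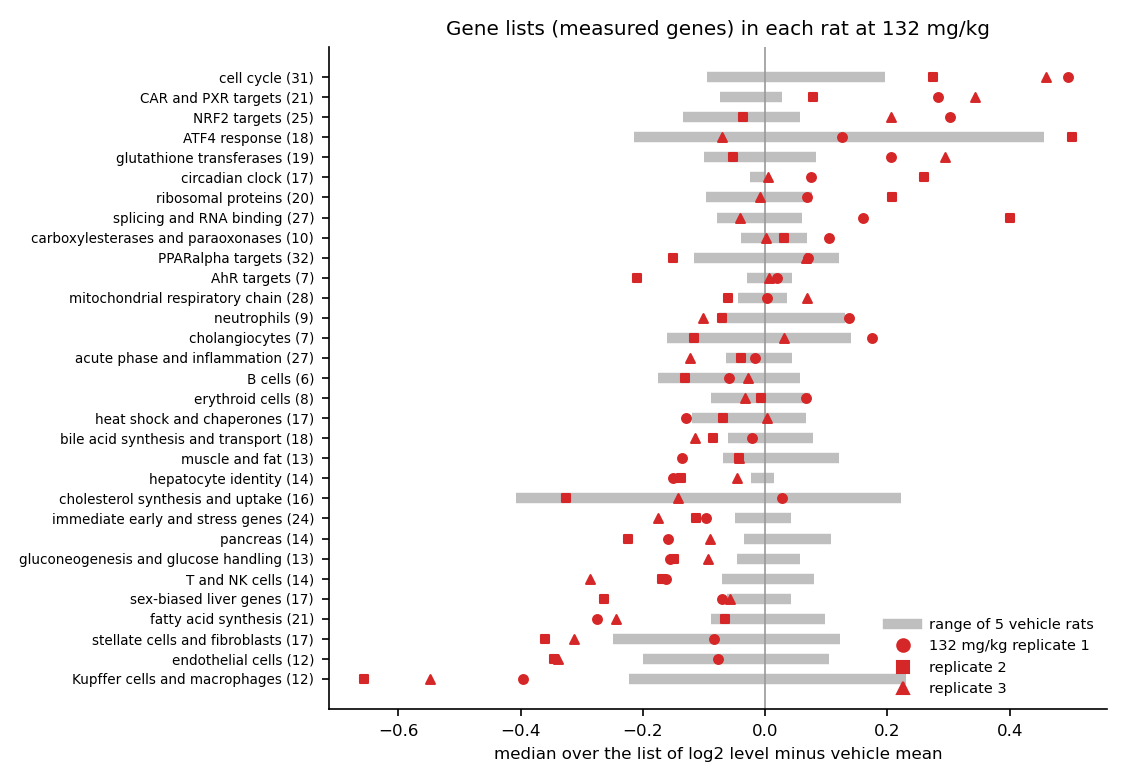
Median over each gene list of the log2 level minus the vehicle mean, with the number of measured genes in brackets. Red markers are the 3 rats at 132 mg/kg and grey bars the range of the 5 vehicle rats. All 3 treated rats lie above the bar for cell cycle genes (0.50, 0.28 and 0.46), CAR and PXR targets and the circadian clock. They lie below it for Kupffer cell markers (-0.40, -0.66 and -0.55) and for hepatocyte, T and NK cell and pancreas markers. The same holds for gluconeogenesis and for immediate early and stress genes. The pancreas medians, of a tissue other than liver, are -0.16, -0.22 and -0.09, against -0.03 to 0.11.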

How the data were processed

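Liver RNA of 20 rats was measured on Affymetrix rat arrays, and the deposited values, log2 intensities, were made by the authors with RMA, as the submitters' processing notes name it. Its version, and which arrays entered it together, were not given in the sources used here. Groups came from the dose in the labels. The 57 control probe sets were kept out of the tests and used for the RNA measures, with no filter on brightness.

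A linear model with 1 mean per dose was fitted to all 20 arrays in limma 3.58.1 (R 4.3.3, lmFit and eBayes, two-sided), with Benjamini-Hochberg adjustment over 31042 probe sets and a threshold of 0.05, so errors of a change are standard errors pooled over all groups. The fit was tested on simulated data. Symbols came from the platform annotation: 20826 probe sets had 1 symbol, 436 several and 9780 are unnamed here. Of the 20826, 20758 were matched to RefSeq (GRCr8) by Entrez identifier.

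Named were every 1-symbol gene past the threshold, by its probe set of largest change, the 10 genes of smallest p that did not pass, the 5 largest slopes in each direction, and from each list the members past the threshold or else the member of smallest p. The other genes named from lists and among probe sets with opposite slopes were chosen after their values were seen. The members and lists were chosen with earlier results of these data known.

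Deviations of same-numbered rats from their group means correlated at 0.09, 0.09 and -0.27 between 132 mg/kg and vehicle. The rule used here for treating rats as paired, that every pair exceeds 0.1, was not met. Between 132 and 66 mg/kg the deviations correlated at 0.10, 0.21 and 0.35, which meets that rule. The count with the block was 0, as without it. Between 132 and 263.6 mg/kg they correlated at -0.20, 0.47 and 0.23, which does not meet that rule. Such correlations do not show whether same-numbered rats shared a processing step. The number of arrays, and how far arrays of a group differ, limit the precision. Alternatives were other normalizations, filters, weights, covariates and each rat left out.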

Additional observations from a re-analysis of the deposited data

Results flagged for a closer look

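In a group of 5 rats, a value standing apart is expected in about 1 of 20 groups by chance. Among the genes named, vehicle replicate 5 stood apart for Tcf7l2, at 9.73 with the nearest vehicle rat at 9.35, and for Cep20, at 8.73 with the nearest at 8.67. In both genes it was the vehicle rat closest to the treated ones, which read 9.94 or more for Tcf7l2 and 8.98 or more for Cep20.

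The poly-A RNAs added before labelling, which are no part of the rat transcripts tested, were above the vehicle range of 5.78 to 7.19 in 132 mg/kg replicate 1 (8.17) and replicate 2 (10.2) and within it in replicate 3 (6.13). Those are the same rats whose 3′ minus 5′ difference was above the vehicle range.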

How the results depend on the processing

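The reported 21 probe sets at 132 mg/kg became 46 with dim probe sets left out, 50 after quantile normalization again, 37 with array weights, 12 with a trended and robust prior, 708 with the covariate and array weights together, and 11 without the arrays of highest 3′ minus 5′ difference (132 and 263.6 mg/kg replicate 2). Leaving out 1 rat gave 6 to 1482, the extremes being 132 mg/kg replicates 1 and 3. The higher to lower split of 11 to 10 became 18 to 8 with array medians subtracted, 29 to 8 with array weights, 28 to 18 without dim probe sets and 10 to 4 with the covariate. No called gene changed sign, and 81 of 303 gene results lost the threshold. Of 132 against 66 mg/kg, 1 probe set passed with only those arrays (1393108_at, -3.54). Of 263.6 against 132 mg/kg, 2 passed with the covariate (Il7 and Stfa2l2), and leaving out 1 rat gave 0 to 1 (1393108_at, without 263.6 mg/kg replicate 2). The 3117 slopes became 544 with a replicate block and 22 in the 12 other arrays, and 935 to 3234 with 1 rat left out, lowest without 132 mg/kg replicate 2. With a replicate block, 23 probe sets passed at 132 mg/kg, 15 of them among the 21, and 0 in both contrasts with neighbouring doses, and Aldh1a1, Sds, Aacs, Fgl2 and Arih2 were lost (8 of 9 higher and 3 of 7 lower genes kept). With only the arrays of the vehicle and 132 mg/kg groups, 16 passed, 11 of them among the 21, with 6 of 9 higher and 4 of 7 lower genes kept. The 3′ minus 5′ difference of 0.67 was -0.24 by hexokinase and 0.19 to 1.07 with 1 rat left out. Il7, Stfa2l2 and the alternatives without the highest arrays, the 12 arrays, hexokinase and poly-A RNAs were chosen after seeing the data. The causes were not tested.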
